A study of Mus musculus with 16 samples.

Results

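Pou5f1 (encoding OCT4), Sox2, Nanog, Sall4, Utf1, Lin28a and Lin28b were followed across the culture conditions in which mouse pluripotent stem cells can be kept. These 7 genes were found on the array through the RefSeq accession of each probe, which gave 11 probes. The array named 20972 genes in this way, of which 15521 were bright enough to be tested, and all 7 were among them. Every one of the 11 probes was well above background on all 16 arrays.

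RNA came from 16 cell lines of the mouse strain 129/Ola, hybridised to 1 Cy3 array each, with 4 lines in each of 4 groups. The 2iSB lines, derived before implantation, were kept in LIF with 2i and SB431542, which blocks signalling through Activin, Nodal and TGF-beta receptors. The 2i lines, also derived before implantation, were kept in LIF with 2i, the inhibitors of the kinases MEK and GSK3. Both are labelled ground state. The mEpiSC lines, labelled primed, were derived from the epiblast after implantation and kept in Activin A and bFGF. The LIF serum lines, labelled naive, were derived before implantation and kept in LIF and serum, and all 3 other groups are compared with them. The labels call all 4 groups ESC, and passage numbers ran from 17 to 28. Each line was derived and kept in 1 medium, so an effect of the medium and one of the lines derived in it cannot be told apart.

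OCT4, SOX2 and NANOG are transcription factors that bind many of the same enhancers, including their own, and OCT4 pairs with SOX2 on a joint DNA element. SALL4 and UTF1 are nuclear factors bound at many of the same genes. LIN28A and LIN28B are RNA-binding proteins that block the maturation of let-7, a microRNA family that rises as cells differentiate. Mouse cells can be pluripotent in a naive or ground state, like the embryo before implantation, or in a primed state, like the later epiblast.

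Levels are given as log2 of the processed signal less the 75th percentile of the array, so a value of 0 is the level of that percentile and a step of 1 is a 2-fold change. They can be compared between arrays for a gene, but not between genes. A difference was called when limma gave an adjusted p under 0.05 over all tested genes and the change was at least 2-fold. Between 51.6% and 63.9% of probes were well above background per array, no spot was saturated, and arrays of a group correlated with r between 0.955 and 0.995. The arrays lay on 2 slides. All mEpiSC arrays, LIF serum arrays 3 and 4, 2i array 4 and 2iSB array 3 were on slide 2, and the rest on slide 1. LIF serum arrays 1 and 2 also carry another sample code (LS) than arrays 3 and 4 (LSFF) (the labels leave both unexplained), so code and slide cannot be told apart there. A list of 13 fibroblast markers summed to 1.60 to 1.94 times the 75th percentile on the 2iSB arrays, 1.83 to 2.33 on the 2i arrays, 169 to 261 on the mEpiSC arrays, 112 and 89.9 on LIF serum arrays 1 and 2, and 11.8 and 12.8 on LIF serum arrays 3 and 4. Of the 13, Col1a1, Pdgfrb and Thy1 were above background on all 2iSB and 2i arrays, Col1a2 and S100a4 on 3 of 4 in each, Lum, Postn, Prrx1 and Twist2 on 0, and the other 4 (Col3a1, Col6a1, Dcn and Fap) on 0 to 2 of 4, while all 13 were above background on every mEpiSC array. The part of such cells in the results below was not tested. In RNA from bulk cultures, fewer cells of a type and less RNA per cell cannot be told apart. The 5 naive markers (Zfp42, Esrrb, Klf4, Tbx3 and Tfcp2l1) summed to 265 to 388 on the 2iSB arrays, 244 to 375 on the 2i arrays, 15.3 to 19.6 on the mEpiSC arrays and 131 to 255 on the LIF serum arrays, lowest in the group labelled primed. The sums of the 5 primed markers (Fgf5, Pou3f1, Otx2, Dnmt3b and Foxa2) did not part mEpiSC from LIF serum. They were 22.4 to 67.5 on the 2iSB arrays, 40.5 to 46.9 on the 2i arrays and 126 to 175 on the mEpiSC arrays. On the LIF serum arrays they were 103 to 193, and arrays 3 and 4 (175.4 and 193) lay above every mEpiSC array. Gene by gene, 3 of the 5 were called higher in mEpiSC than in LIF serum and 0 lower. The median difference of the 5 was 2.66, and 18% of all tested genes were called higher and 15.6% lower.

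**Figure D1:**
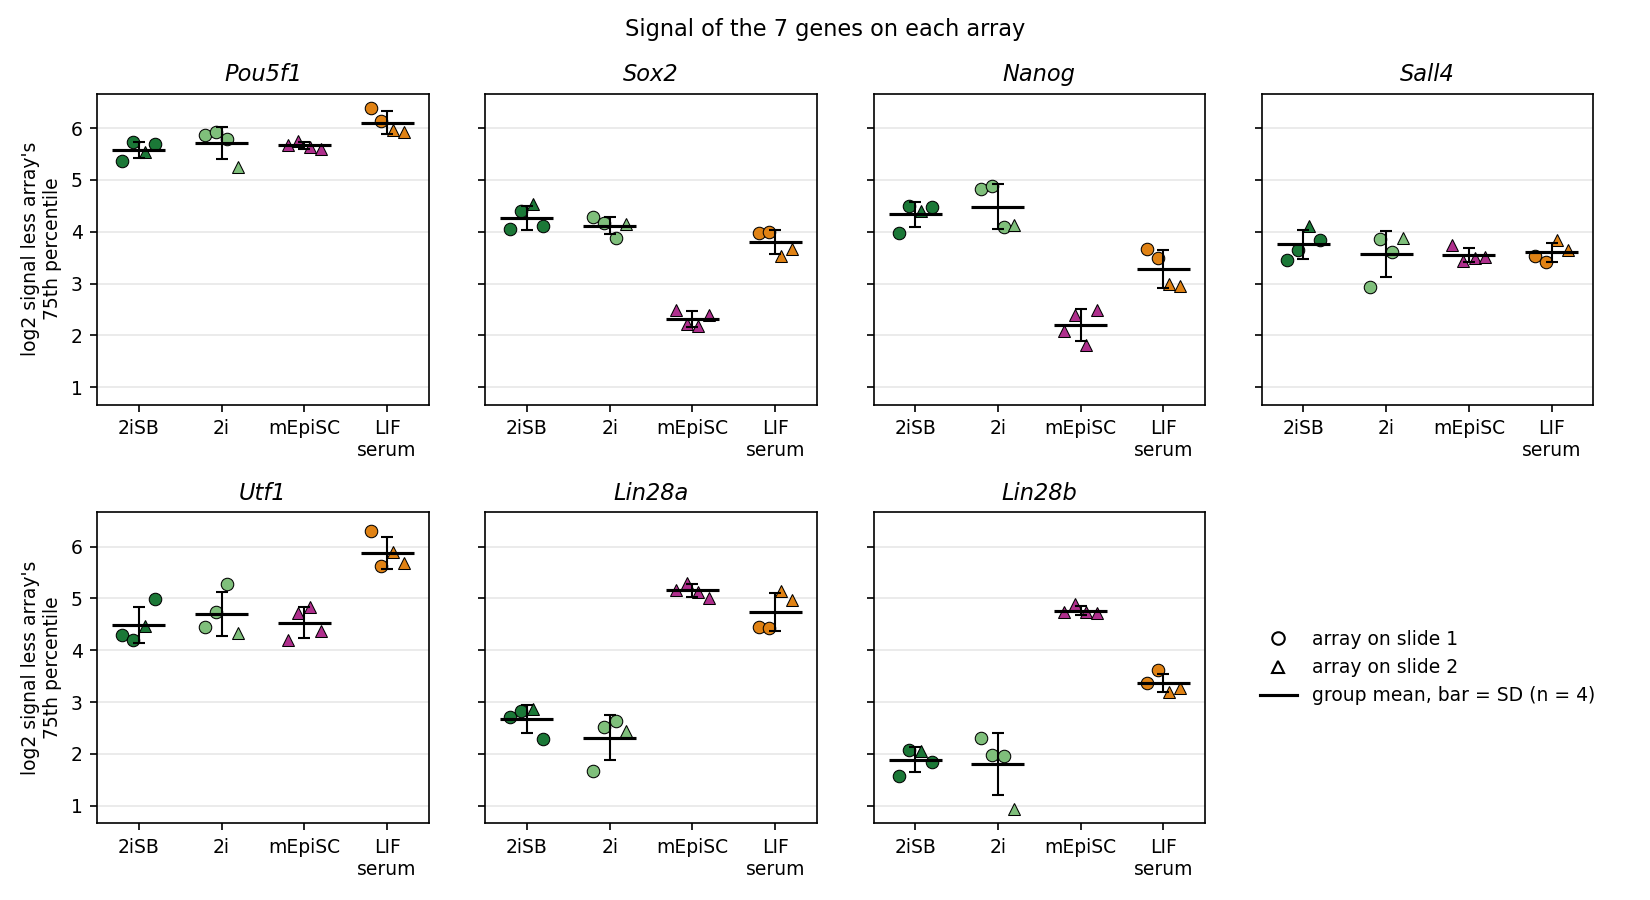
Level of the 7 genes on each of the 16 arrays. The vertical axis is log2 of the signal less the array's 75th percentile, points are arrays (circles slide 1, triangles slide 2), and lines with bars are group means with SD (n = 4). Sox2 and Nanog sit lowest in mEpiSC, Utf1 is highest in LIF serum, and Lin28a and Lin28b are low in both 2iSB and 2i, while Pou5f1 and Sall4 vary little.

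The set did not move as a block. In mEpiSC against LIF serum, 1 of the 7 genes was higher (Lin28b) and 3 were lower (Sox2, Nanog and Utf1), where 18% of all tested genes were called higher, 15.6% lower and 33.6% in either direction. In 2i against LIF serum, 1 was higher (Nanog) and 3 were lower (Utf1, Lin28a and Lin28b), with 6.26% of all genes called higher, 12.1% lower and 18.3% in either direction. In 2iSB against LIF serum the same 4 genes were called in the same directions, with 6.82% of all genes called higher, 13.3% lower and 20.1% in either direction. These 3 comparisons share the LIF serum arrays and are not independent. In both 2i and 2iSB set against mEpiSC, Sox2 and Nanog were higher and Lin28a and Lin28b lower. In 2i, 16.9% of all genes were called higher than in mEpiSC, 20.6% lower and 37.4% in either direction, and in 2iSB 16.2%, 20.1% and 36.4%. These share the mEpiSC arrays. Between 2iSB and 2i, 0 of 7 were called by limma and 0 had an unadjusted p under 0.05, with 0.0838% of all genes called, 0.0129% higher and 0.0709% lower. Without the 2-fold minimum, an adjusted p under 0.05 was reached by 6 members in 2iSB, 4 in 2i and 5 in mEpiSC against LIF serum, beside 33.8%, 30.2% and 53.3% of all genes. Against mEpiSC it was reached by 4 in 2iSB and 4 in 2i, beside 54.8% and 56.2%. Groups were fully separate for as many members, 6, 4 and 5 against LIF serum, 4 and 4 against mEpiSC and 0 between 2iSB and 2i, beside 29.6%, 27.2%, 58.8%, 54.2%, 55.2% and 2.16% of all genes. The median difference of the 7 genes from LIF serum was -0.52 in 2iSB, -0.40 in 2i and -0.44 in mEpiSC, beside 0.02, 0.02 and 0.07 over all tested genes. In the comparisons with mEpiSC, the counts without the 2-fold minimum and of separate groups lay near these shares. They are no result about the members as a set. Called with the 2-fold minimum were 4 of the 7 in each, beside 33.6%, 37.4% and 36.4% of all genes. The 7 were chosen with earlier results of these data known and were not tested as a set.

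Pou5f1, whose product the pluripotent cells of the embryo need, differed little between the groups. It read 5.37, 5.72, 5.54 and 5.69 on the 2iSB arrays and 5.87, 5.92, 5.80 and 5.25 on the 2i arrays. It read 5.67, 5.75, 5.64 and 5.60 on the mEpiSC arrays and 6.39, 6.14, 5.97 and 5.92 on the LIF serum arrays. All 4 LIF serum arrays lay above every 2iSB and mEpiSC array, while 2i and LIF serum overlapped. The difference from LIF serum was -0.52 in 2iSB (SE 0.16, limma adjusted p = 0.022), -0.40 in 2i (adjusted p = 0.080) and -0.44 in mEpiSC (adjusted p = 0.035), none of them 2-fold. Means ran from LIF serum through 2i and mEpiSC to 2iSB, and no neighbours in that order differed past the test. The small fall in mEpiSC depended on the scaling. Centring each array on its median, in place of its 75th percentile, raised the median of all genes in mEpiSC against LIF serum to 0.61 and turned the Pou5f1 difference to 0.10. With LIF serum arrays 3 and 4 alone as the comparison it was -0.27 (adjusted p = 0.26), and with arrays 1 and 2 alone -0.60 (adjusted p = 0.023).

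Sox2, the DNA-binding partner of OCT4 and also a factor of neural progenitors, fell in mEpiSC, with smaller differences among the other groups. It read 4.05, 4.40, 4.53 and 4.11 on the 2iSB arrays and 4.28, 4.17, 3.88 and 4.14 on the 2i arrays. It read 2.49, 2.21, 2.17 and 2.40 on the mEpiSC arrays and 3.98, 4.00, 3.54 and 3.66 on the LIF serum arrays. The 4 mEpiSC arrays lay below all the others, with no overlap. The mEpiSC mean of 2.32 ± 0.15 against 3.80 ± 0.23 in LIF serum (SD, n = 4 each) gave a difference of -1.48 (SE 0.16, adjusted p = 2.4e-06), or 2.78-fold lower. Within slide 2 this was -1.28 (adjusted p = 0.00016). It was -0.94 with median centring, short of 2-fold. Sox2 was 1.95 higher in 2iSB and 1.80 higher in 2i than in mEpiSC (adjusted p = 7.3e-08 and 1.8e-07). Against LIF serum, 2iSB was 0.48 higher (adjusted p = 0.031) and 2i 0.32 higher (adjusted p = 0.14), both under 2-fold, and within slide 1 these were 0.19 and 0.12. The summed signal of 10 neural progenitor markers ran from 3.22 to 4.55 in 2iSB and 3.35 to 7.56 in 2i. In mEpiSC it ran from 20.96 to 27.1, and in LIF serum from 2.84 to 6.30. Of these markers 7 were tested, with 4 higher and 1 lower in mEpiSC than in LIF serum, beside 18% and 15.6% of all genes. Olig2 was above background on 0 arrays, and Neurog1 and Neurog2 on 1 mEpiSC array each. Sox2 was lowest in the group where the sum was highest, and a link between them was not tested.

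Nanog, a homeodomain factor that sustains self-renewal, was called higher than LIF serum in both ground-state groups and lower in mEpiSC. Its brighter probe read 3.97, 4.49, 4.40 and 4.48 on the 2iSB arrays and 4.83, 4.88, 4.10 and 4.13 on the 2i arrays. It read 2.08, 2.40, 1.82 and 2.49 on the mEpiSC arrays and 3.67, 3.50, 2.99 and 2.96 on the LIF serum arrays. The groups fell into 3 levels, with 2iSB and 2i together above LIF serum and mEpiSC below it, and these levels did not overlap. The difference from LIF serum was 1.05 in 2iSB (SE 0.24, adjusted p = 0.0038), 1.20 in 2i (adjusted p = 0.0017) and -1.08 in mEpiSC (adjusted p = 0.0015). Nanog was 4.40-fold higher in 2iSB and 4.88-fold higher in 2i than in mEpiSC (adjusted p = 2.3e-06 and 1.2e-06). The steps on either side of LIF serum were near 2-fold, and the LIF serum arrays differed by slide. On slide 1 the differences were 0.73 in 2iSB (adjusted p = 0.14) and 1.02 in 2i (adjusted p = 0.061), and on slide 2 that of mEpiSC was -0.78 (adjusted p = 0.012). With slide as a block they were 0.96, 1.11 and -0.90, each with an adjusted p under 0.05, of which 2i alone was past 2-fold. Without LIF serum array 3 or 4 the difference in 2iSB was 0.96 or 0.95, and without LIF serum array 1 or mEpiSC array 3 that in mEpiSC was -0.95 or -0.96. With median centring that in mEpiSC was -0.55 (adjusted p = 0.10).

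A dimmer Nanog probe, A_55_P2007699, did not follow the brighter one. It read -0.68, -1.86, -3.50 and -0.86 on the 2iSB arrays and -1.48, -1.98, -0.40 and -0.62 on the 2i arrays. It read -1.39, -1.43, -1.38 and -0.997 on the mEpiSC arrays and -0.88, -1.27, -1.80 and -1.84 on the LIF serum arrays. Its spread within the 2iSB arrays exceeded every difference between groups, and its differences from LIF serum of -0.28, 0.33 and 0.15 in 2iSB, 2i and mEpiSC had an SE of 0.51. The mouse genome holds processed copies of Nanog and Pou5f1, and whether the probes tell them from the genes was not tested.

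Nanog and Sox2, 2 of the 3 members called lower in mEpiSC, have an octamer word in the stretch from 250 bases before to 50 bases after their start, which is why these sequences are shown. The word ATGCAAA is part of the octamer that OCT factors recognise, and it is called the octamer word here. CATTNTN followed directly by that word was taken as the joint SOX and OCT element. Both were searched on both strands in the RefSeq promoters of build GRCm38.p6. Capitals mark the words found, which overlap in Nanog. Both genes lie on the plus strand, Nanog at chr6:122707239-122707538 and Sox2 at chr3:34649745-34650044.
Nanog promoter: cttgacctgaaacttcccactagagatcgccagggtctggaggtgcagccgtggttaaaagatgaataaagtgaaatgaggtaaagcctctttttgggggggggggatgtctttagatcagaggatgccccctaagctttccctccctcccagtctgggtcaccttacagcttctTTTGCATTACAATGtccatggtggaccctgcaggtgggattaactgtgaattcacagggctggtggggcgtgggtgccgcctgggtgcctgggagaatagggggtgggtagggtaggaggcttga
Sox2 promoter: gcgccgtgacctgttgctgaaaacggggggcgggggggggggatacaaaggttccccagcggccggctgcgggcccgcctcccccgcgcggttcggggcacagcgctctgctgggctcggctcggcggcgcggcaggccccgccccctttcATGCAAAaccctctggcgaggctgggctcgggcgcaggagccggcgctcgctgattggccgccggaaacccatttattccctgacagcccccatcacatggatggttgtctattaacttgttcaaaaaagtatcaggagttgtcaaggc

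The octamer word was found in 4.63% of 32851 promoters of this length. The joint element was found in 3 of them, and 2 of these 3 are the entries for Nanog. The windows of Pou5f1, Utf1, Lin28a and Lin28b held neither word, among them Utf1, which was also called lower in mEpiSC, and Sall4 was not searched. A match is a description of the letters, and binding was not measured here.

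Sall4, a zinc-finger factor that interacts with OCT4 and NANOG, gave no call on any of its 3 probes. Its brightest probe averaged 3.76 ± 0.28 in 2iSB, 3.57 ± 0.44 in 2i, 3.55 ± 0.14 in mEpiSC and 3.61 ± 0.18 in LIF serum (SD, n = 4 each). All 4 groups overlapped. The difference of mEpiSC from LIF serum was -0.06 with a 95% interval from -0.49 to 0.38, so a 2-fold change lay outside the interval for this probe at this scaling. With median centring it was 0.48. Both dimmer probes had more negative differences in mEpiSC. A_55_P2173546 differed from LIF serum by -0.89 (SE 0.26, adjusted p = 0.012) and A_51_P145260 by -0.49 (adjusted p = 0.073). The 95% interval of A_55_P2173546 ran from -1.45 to -0.32, so a 2-fold fall lay inside it, and that of A_51_P145260 from -0.95 to -0.03. A_51_P145260 was 0.70 higher in 2iSB and 0.79 higher in 2i than in mEpiSC (adjusted p = 0.013 and 0.0067), still under 2-fold.

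**Figure D2:**
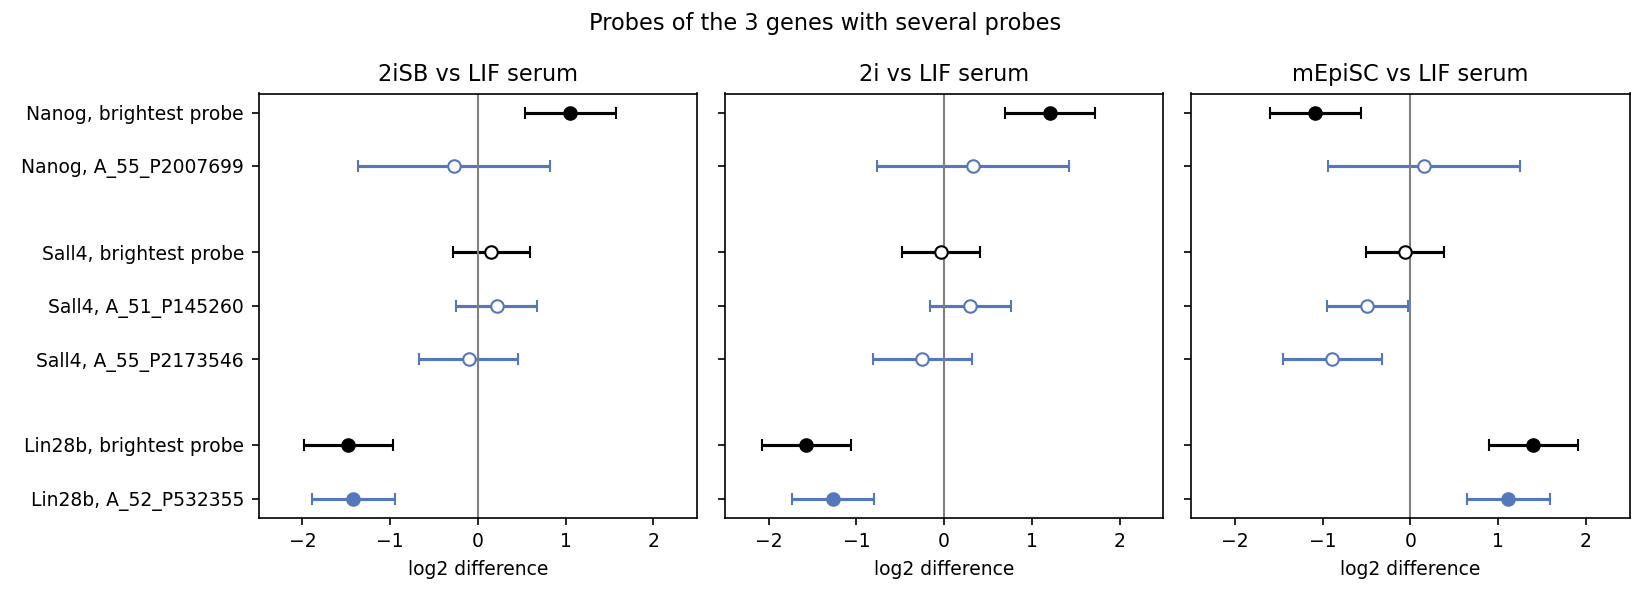
Log2 differences from LIF serum for each probe of Nanog, Sall4 and Lin28b, the 3 genes with several probes. Points are limma estimates with 95% intervals from 16 arrays, black for the brightest probe and blue for the others, filled where called. The Lin28b probes move together, the dim Nanog probe has wide intervals around 0, and the 2 dimmer Sall4 probes lie below 0 in mEpiSC.

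Utf1, a chromatin-associated factor of undifferentiated stem cells that OCT4 and SOX2 activate through an enhancer, was highest in LIF serum. It read 4.30, 4.20, 4.47 and 4.99 on the 2iSB arrays and 4.45, 4.74, 5.28 and 4.33 on the 2i arrays. It read 4.20, 4.72, 4.84 and 4.38 on the mEpiSC arrays and 6.29, 5.62, 5.90 and 5.69 on the LIF serum arrays. The LIF serum arrays lay above all 12 others, which overlapped among themselves. The difference from LIF serum was -1.39 in 2iSB (SE 0.24, adjusted p = 0.00059), -1.17 in 2i (adjusted p = 0.0022) and -1.34 in mEpiSC (adjusted p = 0.00029). Against LIF serum arrays 1 and 2 alone the differences were -1.47, -1.25 and -1.42, and against arrays 3 and 4 alone they were -1.30, -1.09 and -1.26. Within slide 1, 2i was -1.13 with an adjusted p of 0.080. With median centring, mEpiSC was -0.80 (adjusted p = 0.013), short of 2-fold.

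Lin28a and Lin28b were the members with the largest differences, low in both ground-state groups and high in mEpiSC. Lin28a read 2.71, 2.83, 2.87 and 2.28 on the 2iSB arrays and 1.67, 2.53, 2.63 and 2.44 on the 2i arrays. It read 5.17, 5.30, 5.13 and 5.01 on the mEpiSC arrays and 4.44, 4.43, 5.15 and 4.97 on the LIF serum arrays. The 2iSB and 2i arrays lay below all mEpiSC and LIF serum arrays, while mEpiSC and LIF serum overlapped. Lin28a was 4.21-fold lower in 2iSB than in LIF serum (log2 difference -2.07, SE 0.23, adjusted p = 1.4e-05) and 5.38-fold lower in 2i (-2.43, adjusted p = 3.9e-06). Against mEpiSC, it was 5.59-fold lower in 2iSB and 7.14-fold lower in 2i (adjusted p = 2.7e-07 and 6.5e-08). The difference of mEpiSC from LIF serum was 0.41 (95% interval -0.08 to 0.89, adjusted p = 0.14). It was 0.72 against LIF serum arrays 1 and 2 (adjusted p = 0.031) and 0.10 against arrays 3 and 4 (adjusted p = 0.78).

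Lin28b, the paralog of Lin28a, fell into 3 levels. Its brighter probe read 1.57, 2.08, 2.06 and 1.85 on the 2iSB arrays and 2.32, 1.97, 1.96 and 0.94 on the 2i arrays. It read 4.74, 4.89, 4.73 and 4.71 on the mEpiSC arrays and 3.37, 3.62, 3.20 and 3.28 on the LIF serum arrays. The mEpiSC arrays lay above all others, the LIF serum arrays came next, and 2iSB and 2i overlapped at the bottom. The difference from LIF serum was -1.48 in 2iSB (SE 0.23, adjusted p = 0.00030), -1.57 in 2i (adjusted p = 0.00022) and 1.40 in mEpiSC (adjusted p = 0.00016). Lin28b was 7.35-fold lower in 2iSB and 7.83-fold lower in 2i than in mEpiSC (adjusted p = 8.0e-08 and 5.9e-08). The second probe, A_52_P532355, gave differences from LIF serum of -1.42, -1.27 and 1.11 in 2iSB, 2i and mEpiSC, all called. Within slide 2 they were -1.18, -2.30 and 1.53 for the brighter probe, where 2iSB and 2i have 1 array each. The low 2i array 4 at 0.94 made 2iSB 1.12 higher than 2i within that slide (adjusted p = 0.0058), a comparison of 1 array against 1 with a spread taken from the other groups. Over all arrays that difference was 0.09.

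**Figure D3:**
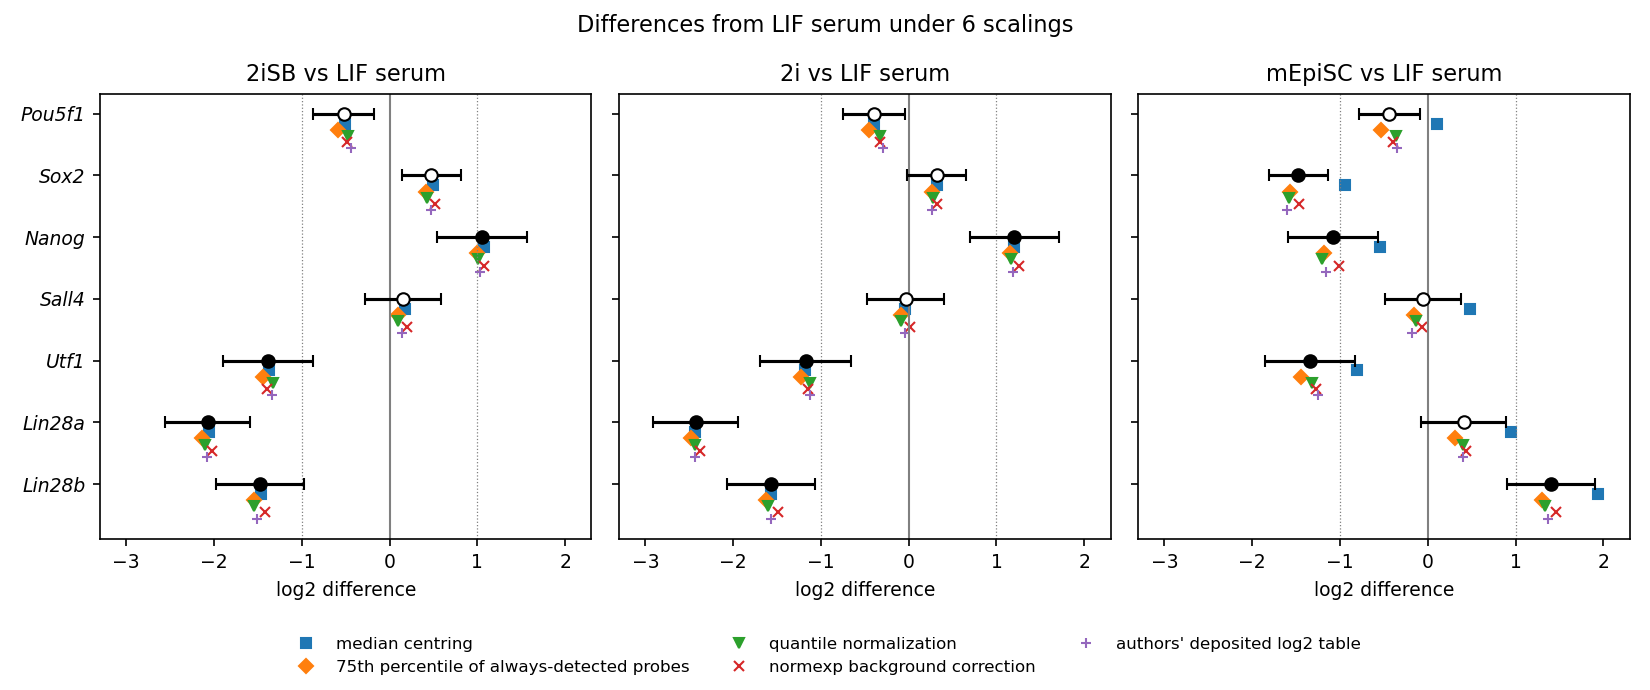
Log2 differences of the 7 genes from LIF serum in 2iSB, 2i and mEpiSC. Circles are the main limma estimates with 95% intervals, filled where called, and coloured marks below each are the same differences under 5 other scalings, with dotted lines at a 2-fold change. The marks lie close together in 2iSB and 2i, while in mEpiSC median centring (blue squares) shifts every gene upwards and takes Sox2, Nanog and Utf1 inside the 2-fold lines.

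LIN28A and LIN28B recognise let-7 precursors through the terminal loop, where a GGAG word is known to be bound. The sequences are shown because the Lin28 genes had the largest changes. RefSeq lists 9 mature let-7 and miR-98 names with a 5p arm, and all 9 share the seed, bases 2 to 8, in capitals below. The let-7g hairpin (GRCm38.p6, chr9:106178840-106178927, plus strand) holds 1 GGAG word, also in capitals. The let-7a sequence shown is from chr13:48538239-48538260 (minus strand), let-7g from chr9:106178846-106178867 (plus), let-7i from chr10:122985698-122985719 (minus) and miR-98 from chrX:151913229-151913250 (plus).
mmu-let-7a-5p: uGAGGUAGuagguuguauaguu
mmu-let-7g-5p: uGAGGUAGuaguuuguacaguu
mmu-let-7i-5p: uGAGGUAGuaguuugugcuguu
mmu-miR-98-5p: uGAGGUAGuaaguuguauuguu
let-7g hairpin: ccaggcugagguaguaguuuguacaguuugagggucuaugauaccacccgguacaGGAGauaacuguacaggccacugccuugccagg

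Mature let-7 levels were not analysed here. Of 29 messenger RNAs listed as let-7 targets, 28 were tested. In mEpiSC against LIF serum, 13 were higher and 0 lower, with a median difference of 1.02 beside 0.07 over all genes, of which 18% were called higher and 15.6% lower. In 2i, 1 was higher (E2f2) and 6 were lower, beside 6.26% and 12.1% of all genes, with a median of -0.01. In 2iSB, 1 was higher (E2f2) and 4 were lower, beside 6.82% and 13.3% of all genes, with a median of 0.10. The 2iSB counts lay near these shares and are no result about the list. Hmga2, a chromatin protein with many let-7 sites, was -2.40 in 2iSB (adjusted p = 0.0011), -2.56 in 2i (adjusted p = 0.00073) and 3.55 in mEpiSC (adjusted p = 1.3e-05). The kinase gene Cdk6, well above background on 1 of the 2iSB, 2 of the 2i and 3 of the LIF serum arrays, was 2.86 higher in mEpiSC. Ccnd2, a cyclin above background on 2 of the 2iSB and 3 of the 2i arrays, was 1.80 higher in mEpiSC. Both were called lower in 2iSB and 2i, where their signals lie partly at background and the size of the difference is not given. The growth factor receptor gene Igf1r and its adaptor Irs2 were 2.43 and 2.72 higher in mEpiSC, and neither was called in 2iSB or 2i. Igf2bp3 was 1.56 higher in mEpiSC, while Igf2bp1, of the same RNA-binding family, was -0.97 there and -1.32 in 2i. Trim71, a let-7 target that is itself a regulator of stem cells, was called in none of the 3. Over the other settings 9 to 19 were higher in mEpiSC and 0 to 1 lower, with the 19 under median centring. That centring called 6736 of the 15521 tested genes, 75.9% of these higher, with a median of 0.61 over all genes. Over the other settings 1 to 7 were higher and 2 to 6 lower in 2iSB, and 1 to 2 higher and 1 to 9 lower in 2i, with the 1 within slide 1 and the 9 within slide 2. Against LIF serum arrays 1 and 2 alone 13 were higher and 1 lower, and against arrays 3 and 4 alone, where the fibroblast markers were lower, 12 were higher and 1 lower. The fibroblast marker sum was highest in the same mEpiSC arrays, and its part in these differences was not tested.

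**Figure D4:**
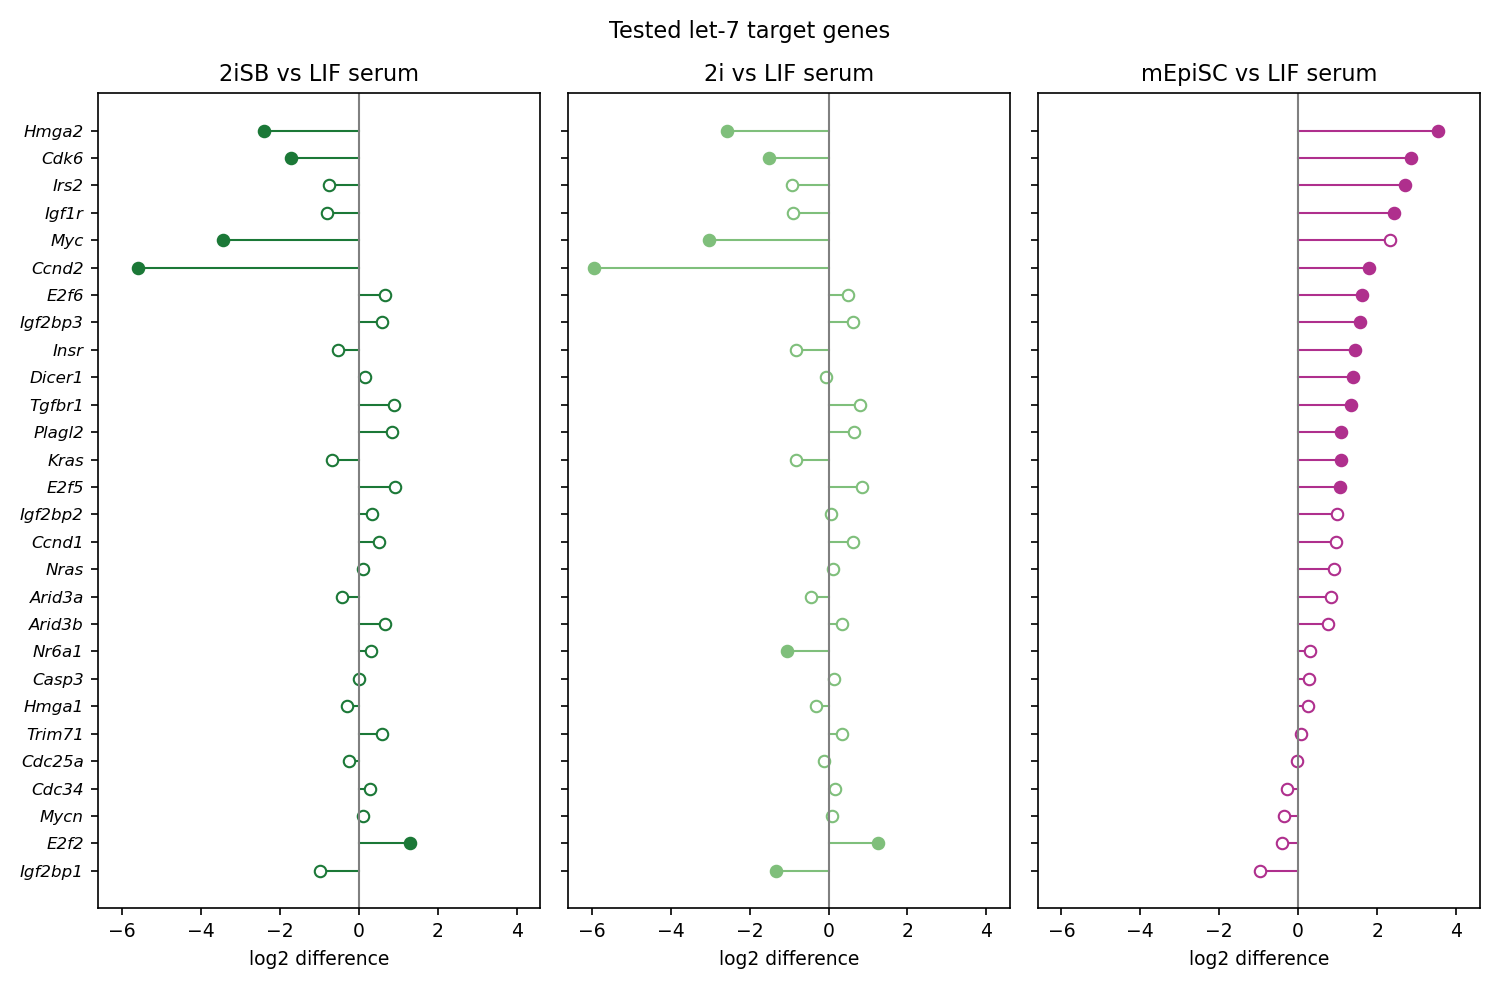
Log2 differences from LIF serum of the 28 tested let-7 target genes in 2iSB, 2i and mEpiSC. Genes are ordered by the difference in mEpiSC, and filled points were called. The called genes in mEpiSC all lie to the right of 0, while those in 2iSB and 2i lie to the left apart from E2f2. Of all tested genes, 13.3% in 2iSB and 12.1% in 2i were called lower. Cdk6, Ccnd2 and Myc were partly at background in 2iSB and 2i, so their points there carry no exact size.

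Of 15 genes for let-7 processing and for the LIN28 pathway, 2 were higher in 2iSB, 1 in 2i and 3 in mEpiSC than in LIF serum, and 0, 0 and 1 were lower. The shares of all genes called higher were 6.82%, 6.26% and 18%, so these counts are no result about the list. Over the other settings 2 to 4 were higher and 1 to 3 lower in mEpiSC. Dgcr8, a subunit of the nuclear microRNA processor, was 1.73, 1.71 and 1.13 higher. The other rises were Ago2 in 2iSB (1.19), and Ago1 (1.39) and Dicer1 (1.40) in mEpiSC. Dicer1 is also on the list of let-7 targets, so its rise is counted in both lists. Trim25, a ubiquitin ligase known as a cofactor of the LIN28A pathway, fell by 1.98 in mEpiSC (adjusted p = 1.2e-06). Tut4 and Tut7, which add uridines to let-7 precursors held by LIN28A, and Dis3l2, which degrades them, were called in none of the 3 comparisons.

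Of 12 relatives of the members among SOXB1, POU and SALL genes 10 were tested, with 5 higher and 1 lower in mEpiSC than in LIF serum, beside 18% and 15.6% of all genes, and 4 not called. Sox3 and Sox1, the other SOXB1 factors, were 2.29 and 3.15 higher (adjusted p = 0.0022 and 1.1e-05). Pou3f1, a POU factor of the later epiblast, was 2.66 higher, and Sall2 3.34 higher. Over the other settings 4 to 6 were higher and 1 to 2 lower, with a median between 0.16 and 1.80. Sox15 fell by 4.82 (adjusted p = 4.1e-09). The fifth, Pou3f2, was not well above background on any LIF serum array, and with the floor of those arrays in their place it had no fold. The list's median of 1.18 became 0.59 with that gene at its bound. In 2iSB and 2i, Pou3f1 was -3.68 and -3.25 and Sall2 was -1.58 and -1.19, while Sox21, of the SOXB2 group, was 3.72 and 2.66 higher. The other 7 tested genes were not called there. Beside this 1 higher and 2 lower, 6.82% and 13.3% of all genes were called in 2iSB and 6.26% and 12.1% in 2i. These counts are no result about the list. In 2i, 1 was lower with median centring, quantile normalization or slide as a block. In 2iSB, 1 was lower within slide 1 or with passage as a covariate. Against LIF serum arrays 3 and 4 alone, 2 were higher and 3 lower in 2i, and 3 higher and 2 lower in 2iSB.

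Of 12 known targets of OCT4 with SOX2, 1 was higher and 4 were lower in mEpiSC than in LIF serum, with a median of -0.82, beside 18% and 15.6% of all genes. Over the other settings 1 was higher and 3 to 6 were lower, and the median was -0.28 with median centring. Fgf4, whose enhancer is a textbook site of the pair, fell by 4.36 (adjusted p = 8.9e-11), and Fbxo15 fell by 5.46. Dppa4 was not well above background on any mEpiSC array and was at least 422-fold lower there (adjusted p = 1.7e-13), a bound set by the lowest signal above background. Kdm4c fell by 1.30. The fifth, Lefty1, a Nodal antagonist, was 3.78 higher in mEpiSC. In 2i, 0 of the 12 were higher and 1 was lower, Kdm4c at -1.17, beside 6.26% and 12.1% of all genes, which is no result about the list. In 2iSB, 0 were higher and 3 were lower, Skil at -1.30, Tdgf1 at -1.001 and Lefty1, beside 6.82% and 13.3%. The number lower over the other settings ran from 1 to 4 in 2iSB, with the 1 when passage was a covariate, and stayed at 1 in 2i. The number higher was 1 in 2i against LIF serum arrays 3 and 4 alone. Counts within slide 2, which holds 1 2iSB and 1 2i array, are not given for the genes called higher. The median in 2i was 0.14, and it ran from -0.13 within slide 1 to 0.29 within slide 2. Between 2iSB and 2i, Lefty1 was the 1 gene of the list that was called, and it was lower in 2iSB (adjusted p = 2.9e-07). Lefty1 was well above background on 1 of 4 2iSB arrays, so the size of its differences there is not given.

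Of 22 protein partners of OCT4, NANOG or SALL4, 0 were higher and 2 lower in mEpiSC, beside 18% and 15.6% of all genes. With median centring 6 were higher and 2 lower, with a median of 0.73 against 0.20. Under that centring 6736 of the 15521 tested genes were called, 75.9% of these higher, and the median of all genes was 0.61. The shift was thus not particular to the list. Nr0b1 fell by 5.55, and Zfp143 fell by 1.59. In both 2iSB and 2i, 1 was higher and 0 were lower, and this was Wdr5, a subunit of histone methyltransferase complexes, at 1.12 and 1.21. Of all genes, 6.82% and 6.26% were called higher there and 13.3% and 12.1% lower. Of 15 known regulators of the members, 4 were higher and 2 lower in mEpiSC, beside 18% and 15.6% of all genes, and this is no result about the list. Over the other settings 4 to 7 were higher, the 7 with median centring, and 2 to 3 lower. Nr5a2, a nuclear receptor that binds the Pou5f1 gene, fell by 6.23, and Zfp143, on both lists, is the other. Nr2f1 and Nr2f2, nuclear receptors that repress Pou5f1, were 3.52 and 3.01 higher, with Nr2f2 above background on 2 LIF serum arrays. Rarb (above background on 2 LIF serum arrays) and Tcf7l1, a repressor of Nanog, were 3.49 and 1.60 higher. Nr5a2 was 1.49 higher in 2iSB and 1.41 in 2i. The other regulators called there were Tcf7l1 in 2iSB (1.07) and Nr6a1, also on the let-7 target list, in 2i (-1.06). With 2 higher and 0 lower in 2iSB, and 1 and 1 in 2i, these counts are no result about the list beside the shares above. Within slide 1, 0 regulators were called in 2iSB or 2i. Against LIF serum arrays 1 and 2 alone, 1 was higher in 2iSB and 0 were called in 2i. With passage as a covariate 0 were called in 2iSB, and in 2i 1 was higher and 0 lower.

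Among the members, levels over the 16 arrays ran together for Sox2 and Nanog (Pearson r = 0.92), for Lin28a and Lin28b (r = 0.89) and for Pou5f1 and Utf1 (r = 0.80), and ran opposite for Nanog and Lin28a (r = -0.92). Sall4 had no r beyond 0.27 in size with any other member. These values describe 16 arrays in 4 groups and follow the group means. Of all tested genes, those most like each member were found by the same r. For Pou5f1 they were Fgf18 (0.898), Vangl2 (0.867) and Pou5f1-rs4 (0.843), the last annotated as a sequence related to Pou5f1, so that their probes may read shared transcripts. For Sox2 they were Prr23a1, Prr23a2 and Nr5a2 (0.987 each). For Nanog they were Phf11b (0.984), Mknk1 (0.979) and Pou4f1 (0.972). Sall4 had lower values, with Usp5 (0.814), Slc9a3r1 (0.811) and Surf6 (0.783). Utf1 had Ccm2l (0.918), Scarb2 (0.891) and Krt71 (0.891). For Lin28a they were Slc1a3 (0.978), Ecscr (0.978) and Gabra3 (0.975), and for Lin28b Sema3e (0.986), Soga3 (0.986) and Hs6st2 (0.985).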

How the data were processed

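Per the file headers, the deposited scanner files hold intensity values made by the authors with Agilent Feature Extraction 10.7.1.1, whose processed signal is background-subtracted and not scaled between arrays. The authors also deposited a table of log2 values, whose normalization the sources used here do not state (the submitters' processing notes name limma, with no role). Its 16 columns, each closest to its own array (r 0.989 to 0.994), served as an alternative, with scale and centring unknown. Here, control and outlier spots (100 to 321 per array) were left out, spots of a probe were averaged, and log2 signals were reduced by each array's 75th percentile. Probes were named by matching 27656 of 55681 to RefSeq accessions of the GRCm38 annotation. The array header names build mm9, so no array coordinates are given. A probe was tested if well above background on all 4 arrays of a group, and the brightest probe stood for its gene. Under R 4.3.3, limma 3.58.1 (lmFit, then eBayes) estimated 4 group means from 16 arrays, with Benjamini-Hochberg adjustment over 15521 genes per comparison, and tested on simulated data. The single-probe values come from a fit of all tested probes. For a bound, a dim signal was set to the array's lowest signal well above background where that was higher.

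The 7 members and all lists were chosen with earlier results of these data known. Genes named are the members, members of the lists, and the 3 genes of highest Pearson r with each member that carry no clone or predicted name. The lists are let-7 targets, let-7 and LIN28 machinery, relatives, OCT4-SOX2 targets, protein partners and regulators, and markers of fibroblasts, neural progenitors, primitive endoderm, trophoblast, mesoderm and the naive and primed states. Markers of primitive endoderm summed to at most 2.19 in 2iSB, 1.62 in 2i, 11.2 in mEpiSC and 4.20 in LIF serum, those of trophoblast to 1.41, 1.41, 4.01 and 2.86, those of mesoderm to 8.12, 9.30, 7.18 and 11.3, and those of the primed state to 67.5, 46.9, 175 and 193. The mEpiSC values of 11.2 and 4.01 were both on array 1. The other mEpiSC arrays read 2.45, 3.98 and 3.68 for primitive endoderm and 2.01, 1.92 and 2.00 for trophoblast. Alternatives were other scalings, background correction, probe rules, slide, replicate number or passage in the model, and left-out arrays. The number of arrays limits the precision, and each array is a separate line of its group.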

Additional observations from a re-analysis of the deposited data

Results flagged for a closer look

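Within the groups of 4 arrays, 2 of 44 combinations of probe and group had an array far from the other 3 by Dixon's test, and chance flags about 1 in 20 groups. The dim Nanog probe A_55_P2007699 read -0.997 on mEpiSC array 4, while the other 3 mEpiSC arrays read -1.43 to -1.38. The brighter Lin28b probe read 4.89 on mEpiSC array 2, while the other 3 read 4.71 to 4.74.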

How the results depend on the processing

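Of 42 differences (7 genes in 6 comparisons), 20 were called, and 13 of these were called under every alternative run. The number called in mEpiSC against LIF serum was 1 with median centring, which moved the share of higher among all called genes to 75.9%, against 53.4%. In 2iSB and 2i against mEpiSC that share was 25.5% and 25.1%, against 44.6% and 45.0%. Within slide 1, 2 were called in 2i against LIF serum, and within slide 2, 1 was called in 2iSB against 2i. Without 1 array in turn, 3 to 4 were called in mEpiSC and in 2iSB against LIF serum, 4 to 4 in 2i against LIF serum and in 2iSB and 2i against mEpiSC, and 0 to 0 in 2iSB against 2i. The labels do not say that replicate numbers pair the lines. Over 24 pairs of the same number, deviations from the group means correlated with r from -0.60 to 0.40. Being closest to the own number in every other group held for 0 of 16 arrays. That condition is strict, so it cannot show pairing to be absent. The replicate block changed no call, with 4 called in each comparison and 0 in 2iSB against 2i. Differences that changed sign were uncalled with the main settings, and the cause was not tested.

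With median centring, in mEpiSC against LIF serum Pou5f1 was 0.10 and Sall4 0.48, in 2i against mEpiSC Pou5f1 was -0.50, Sall4 -0.52 and Utf1 -0.37, and in 2iSB against mEpiSC Sall4 was -0.31. Within slide 2, Pou5f1 was -0.42 and Utf1 -0.20 in 2i against mEpiSC, Sall4 0.13 in 2i against LIF serum, and Nanog 0.27, Pou5f1 0.29 and Utf1 0.14 in 2iSB against 2i. Within slide 1, Lin28b was -0.25 in 2iSB against 2i. With slide as a block, Pou5f1 was -0.21 in 2i against mEpiSC and Sall4 0.056 in 2i against LIF serum. With passage as a covariate, Pou5f1 was -0.011 and Sall4 -0.028 in 2i and Utf1 0.066 in 2iSB against mEpiSC. With the mean of all probes, Lin28b was -0.031 in 2iSB against 2i and Sall4 0.0038 in 2i against LIF serum, where normexp on the median signal gave 0.016. With LIF serum arrays 1 and 2 alone, chosen after seeing the data like normexp, Sall4 was 0.10 in 2i and 0.079 in mEpiSC. Leaving out 1 array in turn gave ranges across 0 for Lin28b (-0.20 to 0.26) and Sall4 (-0.019 to 0.29) in 2iSB against 2i, for Pou5f1 (-0.030 to 0.20), Sall4 (-0.080 to 0.23) and Utf1 (-0.025 to 0.29) in 2i against mEpiSC, for Utf1 (-0.21 to 0.058) in 2iSB against mEpiSC, and for Sall4 against LIF serum in 2i (-0.14 to 0.17) and mEpiSC (-0.13 to 0.019). Nanog lost most calls: its mean over both probes was 0.39 in 2iSB, 0.77 in 2i and -0.47 in mEpiSC against LIF serum, none called.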
